A study of Mus musculus with 6 samples.

Results

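Tetraspanins are membrane proteins that cross the lipid bilayer 4 times and hold partner proteins together in the plasma membrane and in endosomes. Their large outer loop binds integrins, immunoglobulin superfamily proteins or proteases, and a subgroup called TspanC8 carries the protease ADAM10 out of the endoplasmic reticulum to the cell surface. In epithelia of gut and bile duct Tspan8 is a well-known surface tetraspanin, and Cd9, Cd63 and Cd81 are widely used as markers of extracellular vesicles.

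The family was taken as all protein-coding genes named Tspan with a number, together with Cd9, Cd37, Cd63, Cd81 and Cd82, which gave 25 genes of the 55401 gene IDs in the tables. Their polyadenylated RNA was measured in primary mouse cholangiocytes, the epithelial cells of the bile ducts, from wild-type (WT) mice and from a mouse model of polycystic liver disease (PLD), with 3 libraries per group. Both groups were studied 3 months after tamoxifen, and the labels name neither the allele nor the Cre driver behind PLD, nor the age of the mice. Biliary trees were dissected from perfused livers and digested, and cholangiocytes were drawn from the suspension on magnetic beads with an EpCAM antibody. Whether the 3 libraries of a group came from separate mice is not stated in the labels, and the p-values then measure only their spread, which may be technical.

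The libraries held 15768561 to 16710548 counted reads, and between 41413 and 80633 of these fell on the 25 genes. Epithelial RNA was present in all libraries: 19 cholangiocyte and epithelial markers summed to 9926 to 14607 CPM (counts scaled to library depth) in WT and 32274 to 45181 CPM in PLD. Of these markers 16 were higher in PLD, among them Krt7 and Krt19, and 2 were lower (median log2 fold change 1.57). The lower ones were Cftr (-2.24) and Sctr (-4.31). The WT preparations also held much endothelial RNA. The 20 endothelial markers summed to 9638 to 12265 CPM in WT and 715 to 1275 CPM in PLD, and all 20 were lower (median -3.40), with the smallest p-values for Flt1, Pecam1 and Erg. The 18 fibroblast, stellate and smooth muscle markers summed to 9309 to 14484 CPM in WT and 1999 to 4993 CPM in PLD, with 14 lower, 1 higher (Thy1) and a median of -1.84. No marker of these 3 lists was at 0 in all libraries of a group, but the secretin receptor gene Sctr, a cholangiocyte marker, had 2.10 to 2.36 CPM in WT and 0, 0.061 and 0.240 CPM in PLD replicates 1 to 3. Hepatocyte markers summed to 1625 to 2559 CPM in WT and 3406 to 7587 CPM in PLD, with 4 of 12 higher, 4 lower and a median of -0.49. Alb alone had 1085 to 1888 CPM in WT and 1303 to 5512 CPM in PLD, and it did not pass the test described below. In such bulk RNA, fewer cells of a type and less RNA per cell cannot be told apart, and the part of these markers in each change below was not tested. PLD replicate 1 had the lowest endothelial and fibroblast sums of all libraries and the highest epithelial sum.

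Of the 25 genes, 24 had enough reads to be tested, and 4 of these were higher and 9 lower in PLD in edgeR (quasi-likelihood F test, Benjamini-Hochberg adjusted p below 0.05 over the 15334 genes tested). Over all genes tested, 27.0% were higher and 28.4% lower, so the called share of the family (54.2%) lay near the background of 55.4%. The 4 that rose were Tspan8, Tspan15, Cd9 and Tspan33, and the 9 that fell were Tspan5, Tspan2, Tspan18, Tspan7, Tspan11, Tspan13, Tspan12, Tspan9 and Cd37. At least 2-fold changes were found for 3 that rose and 8 that fell, against backgrounds of 9.21% and 18.1%. All PLD libraries lay above all WT libraries for 6 of the 24 genes (33.0% of all genes) and below them for 10 (33.2%), so that 66.7% of the family had separate groups, against 66.2% of all genes. The median log2 fold change was -0.29 in the family and 0.01 over all genes.

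**Figure D1:**
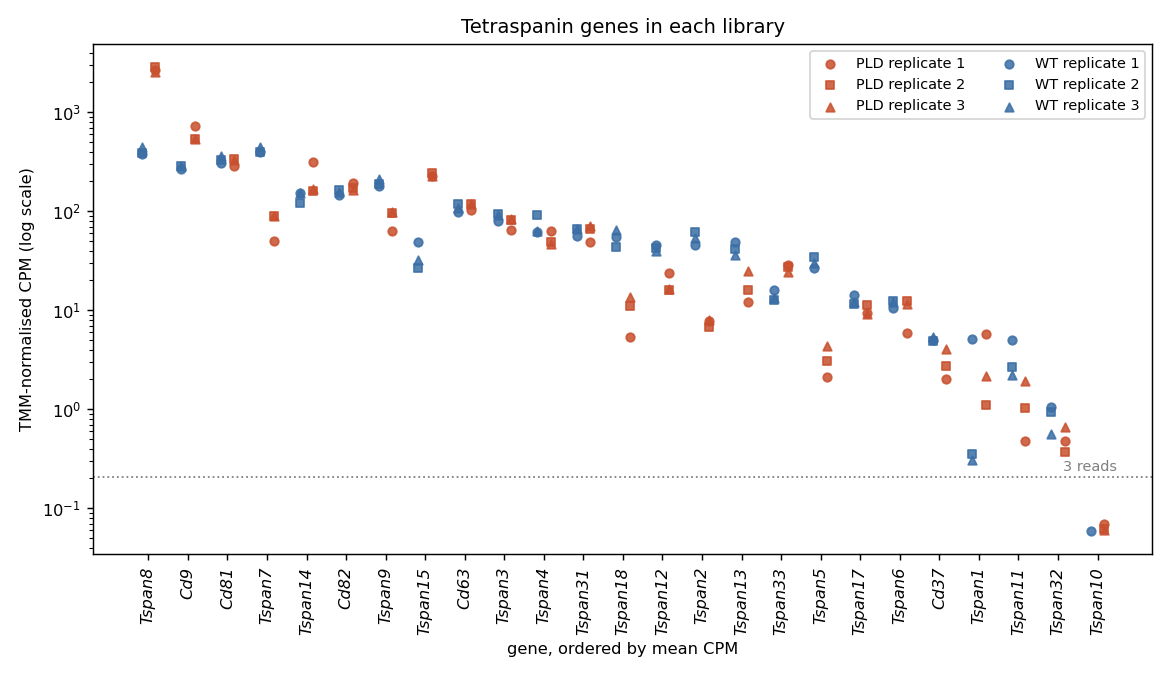
CPM of the 25 tetraspanin genes on a log axis in each library, WT in blue and PLD in red, with a marker shape for each replicate number, ordered by mean CPM; the dotted line is 0.207 CPM, the most that 3 reads make in any library. Tspan8 sits apart from all other members in PLD (2565 to 2857 CPM), Tspan7, Tspan18, Tspan2 and Tspan5 lie lower in PLD, and 2 WT libraries of Tspan10 with 0 reads are not drawn.

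The promoter windows of the pairs with the largest rise and the largest fall are shown first, since these 4 genes span the range of the response. Each covers 250 bases before and 50 after the RefSeq start nearest the 5′ end of the gene model (GRCm38.p6, the assembly behind mm10). Capitals mark CG pairs, the sites of DNA methylation.
Tspan8, chr10:115817034-115817333, plus strand: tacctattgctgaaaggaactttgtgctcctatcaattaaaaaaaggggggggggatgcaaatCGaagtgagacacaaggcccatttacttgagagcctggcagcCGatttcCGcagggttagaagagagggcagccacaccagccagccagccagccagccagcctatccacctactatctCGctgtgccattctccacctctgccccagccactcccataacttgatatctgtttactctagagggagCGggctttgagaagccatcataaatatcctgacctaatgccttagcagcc
Tspan15, chr10:62231169-62231468, minus strand: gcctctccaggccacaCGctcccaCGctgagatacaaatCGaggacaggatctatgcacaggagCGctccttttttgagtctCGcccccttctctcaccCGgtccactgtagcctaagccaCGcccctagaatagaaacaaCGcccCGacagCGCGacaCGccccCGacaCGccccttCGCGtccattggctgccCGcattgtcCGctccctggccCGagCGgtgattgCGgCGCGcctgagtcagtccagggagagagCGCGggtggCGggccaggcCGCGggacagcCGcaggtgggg
Tspan5, chr3:138741958-138742257, plus strand: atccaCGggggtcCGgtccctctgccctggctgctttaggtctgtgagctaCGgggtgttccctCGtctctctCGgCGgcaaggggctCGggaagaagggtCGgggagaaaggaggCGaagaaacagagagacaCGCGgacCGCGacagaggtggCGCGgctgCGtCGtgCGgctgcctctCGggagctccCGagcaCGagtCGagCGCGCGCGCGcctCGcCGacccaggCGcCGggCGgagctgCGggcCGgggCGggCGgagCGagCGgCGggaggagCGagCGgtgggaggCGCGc
Tspan2, chr3:102734520-102734819, plus strand: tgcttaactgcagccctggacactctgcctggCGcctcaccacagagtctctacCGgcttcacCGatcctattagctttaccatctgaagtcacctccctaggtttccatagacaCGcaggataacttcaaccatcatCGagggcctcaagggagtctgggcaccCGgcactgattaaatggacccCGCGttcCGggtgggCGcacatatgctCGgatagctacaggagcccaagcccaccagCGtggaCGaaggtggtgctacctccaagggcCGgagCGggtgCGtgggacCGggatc
The 2 genes that rose most differ in this respect: the Tspan8 window has 5 CG pairs and the Tspan15 window 29. The Tspan5 window has 43 and the Tspan2 window 17.

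Windows were found in RefSeq for 24 of the 25 members. The ratio of observed to expected CG pairs was 0.253 for Tspan8, 0.891 for Tspan15, 0.663 for Tspan33 and 0.689 for Cd9, with a median of 0.384 over 32851 windows of 300 bases in the RefSeq table. Among the 8 genes that fell and had a window, the ratio ran from 0.235 (Tspan11) to 1.111 (Tspan5). Windows of genes that rose and genes that fell thus covered overlapping ranges. The letters GGGCGG, bound by Sp1-type factors, were searched on both strands and found in 2 of 4 windows of genes that rose, 5 of 8 of genes that fell and 35.7% of all windows. The letters CCAAT were found in 2 of 4 and 2 of 8 (37.4% of all windows), and TATAAA in 0 of 4 and 1 of 8 (13.6%). The grainyhead letters AACCNGTT were in the Tspan11 window only among the 24 (2.09% of all windows). None of these letter strings contains another, and a match describes the window only.

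Tspan8 (ENSMUSG00000034127.15, mm10 chr10:115816832-115849893, plus strand), the surface tetraspanin of secretory epithelia, had the highest level per gene length in both groups. There were 376, 385 and 441 CPM in WT replicates 1 to 3 and 2698, 2857 and 2565 CPM in PLD replicates 1 to 3. Every PLD library thus lay far above every WT library, and the PLD libraries differed little among themselves. In log2 units the difference was 2.76 ± 0.14 (edgeR adjusted p = 3.04e-05), where ± after a log2 fold change is its standard error (SE). Per 100 reads of Epcam, the bead target, there were 95.4 to 151 Tspan8 reads in WT and 198 to 294 in PLD. Per kilobase of gene model, the scale on which levels of different genes can be compared, the mean level was 235 CPM per kilobase in WT and 1590 in PLD. By this level it ranked 112th among the 15334 genes tested in WT and 13th in PLD.

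The make-up of tetraspanin RNA differed between the groups, with the largest difference for Tspan8. Its share of the family sum of CPM per kilobase was 26.9% ± 1.09 in WT and 68.5% ± 2.26 in PLD (SD, n = 3 libraries each), a difference of 41.6 percentage points. The groups did not overlap, and the two-sided exact permutation p was 0.1, the smallest that 3 against 3 libraries allow. The family sum itself went from 874 ± 45.3 to 2323 ± 105 CPM per kilobase. Without Tspan8 it was 638 ± 26.3 in WT and 732 ± 65.8 in PLD. Cd9 held the next place in both groups, with 15.7% ± 0.386 in WT and 12.7% ± 2.03 in PLD. Cd81 went from 13.2% ± 0.454 to 4.73% ± 0.548 of the sum, although its own CPM did not pass the test. Once Tspan8 was left out of the sum, some of the other shares still differed and others did not. Cd82 held 8.08% ± 0.365 in WT and 8.06% ± 0.187 in PLD, and Cd63 4.62% ± 0.374 and 4.22% ± 0.656. Cd9 then held 21.5% ± 0.25 in WT and 40% ± 3.68 in PLD, and Tspan7 9.19% ± 0.412 in WT and 1.51% ± 0.559 in PLD.

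**Figure D2:**
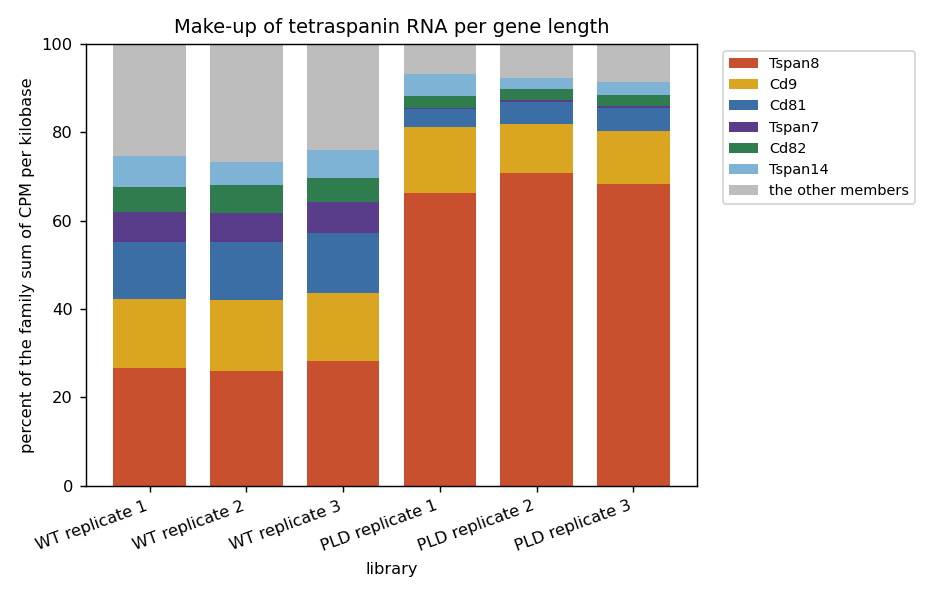
Stacked bars give, for each library, the percent of the summed CPM per kilobase of all 25 tetraspanin genes that came from Tspan8, Cd9, Cd81, Tspan7, Cd82, Tspan14 and all other members together. Tspan8 takes 26.0 to 28.1% in the 3 WT libraries and 66.2 to 70.8% in the 3 PLD libraries.

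Among the tetraspanins of the cell surface and of vesicles, Cd9 rose, Cd37 fell, and Cd63, Cd81, Cd82 and Tspan32 did not pass. Cd9 (chr6:125460266-125494791), which joins integrins and immunoglobulin superfamily partners at the surface, had 266, 286 and 289 CPM in WT and 731, 537 and 538 CPM in PLD replicates 1 to 3. All PLD libraries were higher, with PLD replicate 1 above the other two (log2 fold change 1.10 ± 0.15, edgeR adjusted p = 7.59e-04). Epcam itself rose by 1.61 ± 0.24, and scaling the libraries to their Epcam reads moved the median log2 fold change of all genes from 0.01 to -1.63. On that scale Cd9 was at -0.58, below 0 but above that median. Per 100 Epcam reads there were 67.6, 113 and 69.4 Cd9 reads in WT and 53.6, 55.2 and 58.5 in PLD. Cd9 also shares 218 of its 2044 exon bases with Gm26728 on the opposite strand, which had 1 to 11 reads per library.

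Cd63 (chr10:128900989-128912822), a tetraspanin of late endosomes and lysosomes, had 97.5, 119 and 109 CPM in WT and 103, 118 and 118 CPM in PLD, and the groups overlapped (log2 fold change 0.05 ± 0.11). Cd81 (chr7:143052739-143067934), which partners immunoglobulin superfamily proteins, had 308, 327 and 365 CPM in WT and 284, 336 and 327 CPM in PLD (-0.08 ± 0.12). Cd82 (chr2:93419111-93463140), known as a suppressor of metastasis, had 145, 164 and 155 CPM in WT and 195, 172 and 165 CPM in PLD. These did not overlap by a narrow margin but did not pass (0.20 ± 0.11, edgeR adjusted p = 0.151). The 3 vesicle markers in common use thus gave a rise for Cd9 and values near 0 for Cd63 and Cd81.

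Cd37 (chr7:45233632-45239115), a tetraspanin of leukocytes, was low, with 4.96, 4.89 and 5.37 CPM in WT and 1.997, 2.74 and 4.02 CPM in PLD. It fell by 0.79 ± 0.28 on the log2 scale (edgeR adjusted p = 0.0436), and the call was lost when any library other than PLD replicate 3 was left out (adjusted p from 0.0712 to 0.125). It shares 13 exon bases with Tead2 on the opposite strand, which fell by 1.32 ± 0.32. Tspan32 (chr7:143005046-143019644), also a leukocyte gene, had 6 to 18 reads per library and did not pass (-0.76 ± 0.40). Markers of leukocytes went both ways: of 17 macrophage and dendritic cell markers 3 rose and 4 fell, and of 14 B, T and NK cell markers 5 were tested, with 2 rising and 1 falling. The summed levels were 1190 to 1538 CPM in WT and 1459 to 1975 CPM in PLD for the first list, and 12.4 to 19.4 and 24.6 to 44.7 CPM for the second. Of 9 neutrophil and mast cell markers 5 were tested and 4 fell, with sums of 128 to 179 CPM in WT and 18.7 to 26.3 CPM in PLD, and the mast cell genes Cpa3 and Mcpt4 had no reads in PLD. Both were already near 0 in WT, with 0.062 to 0.472 CPM for Cpa3 and 0 to 0.118 CPM for Mcpt4. The part of leukocyte RNA in the Cd37 value was not tested.

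**Figure D3:**
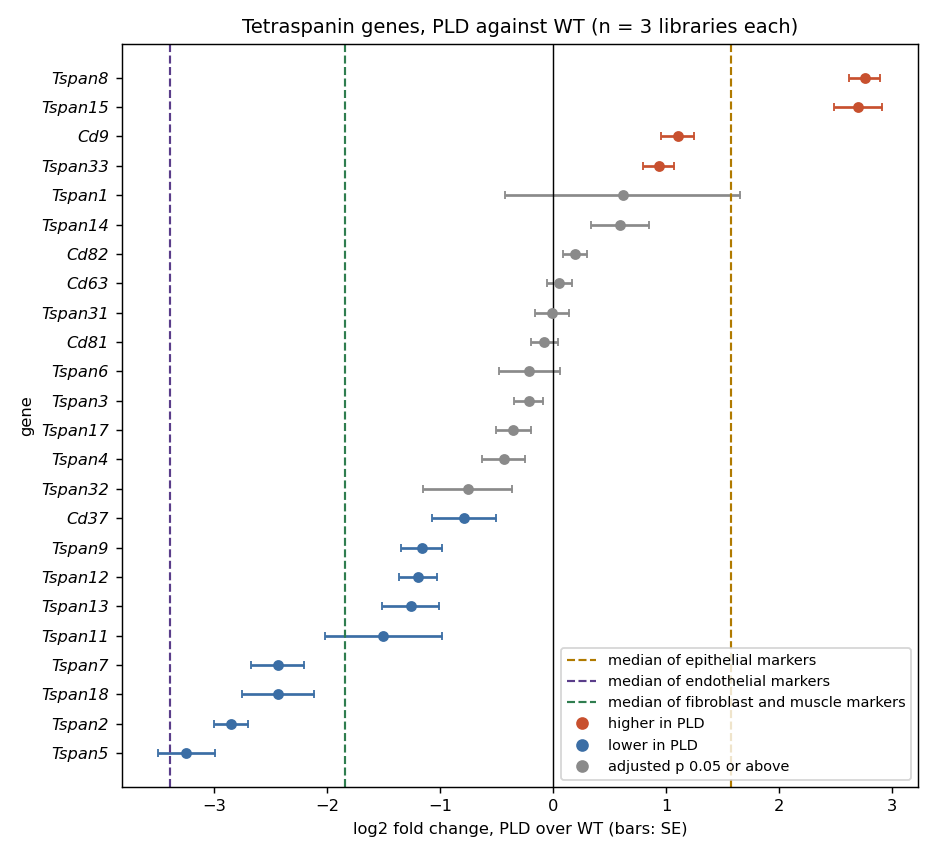
Points give the log2 fold change of the 24 tested tetraspanin genes, PLD over WT, with bars of 1 SE and colours for higher, lower and not past the threshold; dashed lines mark the medians of the epithelial (1.57), fibroblast and muscle (-1.84) and endothelial (-3.40) marker lists. Tspan8 and Tspan15 lie to the right of the epithelial median, Cd9 and Tspan33 to its left, and no member lies below the endothelial median.

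The TspanC8 genes, whose proteins escort the sheddase ADAM10, changed in opposite directions. Tspan15 and Tspan33 rose, Tspan5 fell, Tspan14 and Tspan17 did not pass, and Tspan10 was too low to test. Adam10 itself was at 182 ± 5.41 CPM in WT and 181 ± 16.4 CPM in PLD (log2 fold change -0.01 ± 0.10).

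Tspan15 (chr10:62185396-62231251), the TspanC8 protein known to direct ADAM10 to N-cadherin, had 48.6, 26.9 and 32.6 CPM in WT and 227, 246 and 229 CPM in PLD replicates 1 to 3. The PLD libraries were close to one another, and the WT libraries varied more, with WT replicate 1 highest. The rise was 2.698 ± 0.21 in log2 units (edgeR adjusted p = 9.03e-05). Scaled to Epcam reads, the values remained positive for both Tspan15 (1.1204) and Tspan8 (1.1281), where the median of all genes was -1.63. For each 100 Epcam reads the WT libraries gave 7.82 to 12.3 Tspan15 reads and the PLD libraries 16.6 to 25.2, without overlap.

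Tspan33 (chr6:29694222-29718559), known from red cell precursors and B cells, had 16.05, 12.8 and 13.3 CPM in WT and 28.9, 27.3 and 24.3 CPM in PLD. All PLD libraries were higher (log2 fold change 0.93 ± 0.14, edgeR adjusted p = 0.00103). Scaled to Epcam reads, the value was -0.70, where the median of all genes was -1.63. Tspan5 (chr3:138742195-138907905), which together with Tspan14 is known to promote ADAM10-dependent Notch cleavage, had 26.5, 34.6 and 29.9 CPM in WT. Its values of 2.14, 3.05 and 4.32 CPM in PLD made it the member with the largest fall (-3.25 ± 0.25, edgeR adjusted p = 7.8e-05).

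Tspan14 (chr14:40906445-40966807) had the highest level per gene length among the TspanC8 genes in both groups and did not pass (log2 fold change 0.59 ± 0.26, edgeR adjusted p = 0.0877). It had 151, 122 and 153 CPM in WT and 313, 159.9 and 169 CPM in PLD, so that 1 library, PLD replicate 1, stood well above the rest. Without that library the log2 fold change was 0.22, and it was 0.60 and past the threshold (adjusted p = 0.0359) without a filter on low counts. Tspan17 (chr13:54789377-54796776) had 14.1, 11.7 and 12.2 CPM in WT and 9.37, 11.3 and 9.07 CPM in PLD (-0.35 ± 0.16, edgeR adjusted p = 0.0919). Tspan10 (chr11:120442644-120446950), known from pigment cells, had 1 read in each PLD library and 1 read in all of WT.

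Per kilobase, the TspanC8 genes together went from 72.5 ± 7.82 to 121 ± 31.5 CPM per kilobase. Tspan15 made up 6.01% ± 1.37 of this in WT and 24.7% ± 6.2 in PLD, while Tspan5 went from 5.77% ± 1.44 to 0.385% ± 0.194 and Tspan14 held 73.9% ± 2.05 and 65.3% ± 8.62. The first 2 of these shares did not overlap between the groups (two-sided exact permutation p = 0.1, the smallest possible). Among 9 genes of the ADAM10 pathway 1 rose and 5 fell, against 27.0% higher and 28.4% lower over all genes. The 4 with the smallest p were the adhesion gene Cdh5 (-3.002 ± 0.18), the receptor genes Notch1 (-2.15 ± 0.13) and Notch3 (-3.31 ± 0.25) and the ligand gene Dll4 (-2.11 ± 0.21), all lower in PLD, and Cdh1, encoding E-cadherin, was the gene that rose (1.36 ± 0.23). Cdh5 is itself an endothelial marker, and the 20 endothelial markers had a median of -3.40.

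Tspan7, Tspan18, Tspan2, Tspan9, Tspan12, Tspan13 and Tspan11 fell, which with the rise of Tspan8 makes 7 lower and 1 higher among 13 Tspan genes outside the TspanC8 genes and the surface and vesicle tetraspanins, against 28.4% lower and 27.0% higher over all genes. Tspan7 (chrX:10485158-10596605), a tetraspanin of neurons that is linked to intellectual disability, had 393, 400.2 and 451 CPM in WT and 49.5, 89.9 and 90.1 CPM in PLD. It fell by 2.44 ± 0.23 in log2 units (edgeR adjusted p = 1.86e-04), with the groups far apart. By CPM per kilobase it ranked 651st among the tested genes in WT and 4445th in PLD.

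Tspan18 (chr2:93201760-93334505), a regulator of the calcium channel Orai1 in endothelial cells, had 55.3, 43.1 and 65.0 CPM in WT and 5.37, 11.1 and 13.5 CPM in PLD (-2.44 ± 0.32, edgeR adjusted p = 6.75e-04). Its neighbour Cd82 on the same strand of chromosome 2 did not pass. Tspan2 (chr3:102734529-102801513), known from oligodendrocytes and smooth muscle, had 46.1, 62.1 and 54.2 CPM in WT and 7.71, 6.77 and 7.99 CPM in PLD (-2.85 ± 0.15, edgeR adjusted p = 3.3e-05). The 3 PLD libraries agreed closely for Tspan2, unlike those of Tspan7 and Tspan18, in which PLD replicate 1 was lowest. Of 8 tested glial and neuronal markers 6 fell and 2 rose, and the list summed to 131 to 221 CPM in WT and 286 to 324 CPM in PLD.

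Tspan12 (chr6:21771395-21852515) belongs to the norrin receptor complex, in which it joins Fzd4 and Lrp5 in retinal vessels. It had 45.8, 42.9 and 40.1 CPM in WT and 23.7, 15.98 and 16.5 CPM in PLD (-1.20 ± 0.17, edgeR adjusted p = 8.75e-04). All 3 tested genes of the complex fell as well, where 28.4% of all genes tested were lower. Lrp5 fell by 1.16 ± 0.12, Fzd4 by 1.18 ± 0.16 and Lrp6 by 0.68 ± 0.13, and the ligand gene Ndp was too low to test. Within PLD, replicate 1 had the lowest endothelial marker sum and the highest Tspan12 value. The part of endothelial RNA in the Tspan12 fall was not tested.

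Tspan9 (chr6:127961396-128143594), known from platelets, had 179.6, 189.9 and 213 CPM in WT and 63.5, 97.0 and 99.0 CPM in PLD (-1.16 ± 0.18, edgeR adjusted p = 0.00133). Tspan13 (chr12:36014557-36042500) had 49.0, 41.5 and 36.4 CPM in WT and 12.1, 15.98 and 24.7 CPM in PLD (-1.26 ± 0.25, edgeR adjusted p = 0.00441). For both, all PLD libraries lay below all WT libraries. Tspan11 (chr6:127887589-127953977), next to Tspan9, had 5.01, 2.65 and 2.22 CPM in WT and 0.482, 1.04 and 1.92 CPM in PLD. It fell by 1.504 ± 0.52 (edgeR adjusted p = 0.0392), which no longer passed when any library other than PLD replicate 3 was left out (adjusted p from 0.0503 to 0.126).

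Tspan1, Tspan3, Tspan4, Tspan6 and Tspan31 did not pass. Tspan1 (chr4:116161869-116167601), an epithelial gene of gut and airway, was high in replicate 1 of both groups. It had 87 reads in WT replicate 1 against 6 and 5 in the other WT libraries, and 83 reads in PLD replicate 1 against 18 and 36. The log2 fold change of 0.61 ± 1.04 therefore rested on single libraries: it was 3.13 and past the threshold (edgeR adjusted p = 0.0182) without WT replicate 1, and -0.24 without PLD replicate 1.

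Tspan3 (chr9:56131725-56165477; log2 fold change -0.22 ± 0.13), Tspan6 (chrX:133891068-133898429; -0.21 ± 0.27) and Tspan31 (chr10:127067280-127070264; -0.01 ± 0.15) had overlapping groups. Tspan4 (chr7:141475240-141493427), known from migrasomes, the vesicle-like organelles left by migrating cells, had 61.3, 92.0 and 63.6 CPM in WT and 63.8, 49.5 and 46.7 CPM in PLD. It did not pass (-0.44 ± 0.19, edgeR adjusted p = 0.0838) but fell by 0.58 (adjusted p = 0.0346) without PLD replicate 1. Tspan31 shares 641 of its 2193 exon bases with Cdk4 on the opposite strand, and Tspan4 shares 292 of 2601 with Chid1. No strand option is named for the counting, so reads of these pairs cannot be told apart there. Neither Cdk4 (0.17 ± 0.15) nor Chid1 (-0.09 ± 0.17) passed.

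**Figure D4:**
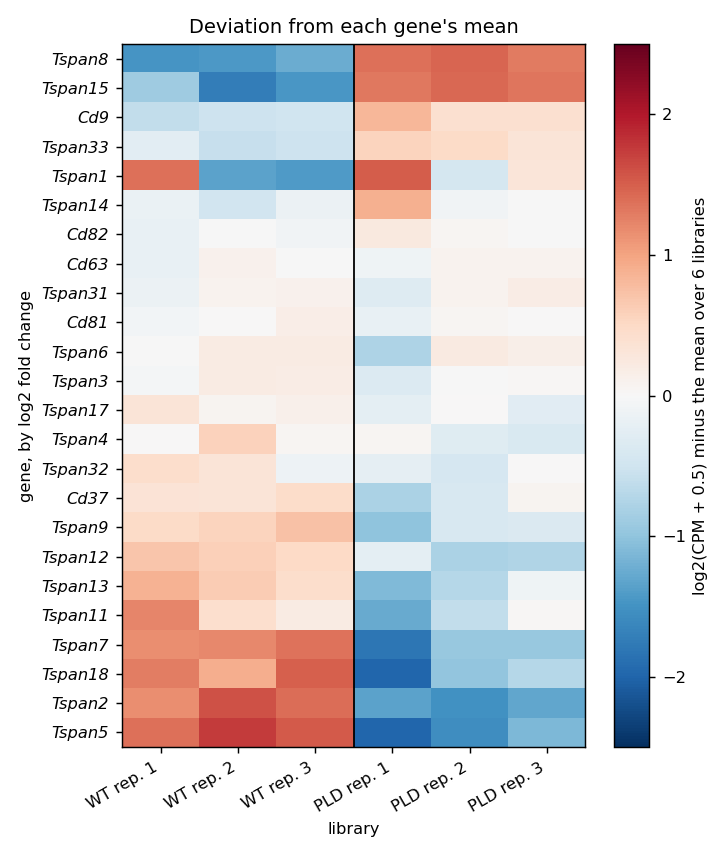
Colour gives log2(CPM + 0.5) minus its mean over the 6 libraries for each of the 24 tested genes, WT libraries left of the black line and PLD libraries right of it, rows ordered by log2 fold change. The top and bottom rows split by group in all libraries, and PLD replicate 1 departs from the other PLD libraries for Tspan1, Tspan6, Tspan7, Tspan14 and Tspan18, among others.

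The PLD libraries differed among themselves. PLD replicate 1 was the lowest PLD library for 13 of the 24 tested genes and the highest for 7. WT replicate 1 was as often at the end of its own group, lowest for 13 and highest for 8. Relative to the mean of the other PLD libraries the ratio of PLD replicate 1 was lowest for Tspan11 (0.326), Tspan18 (0.437), Tspan6 (0.492), Tspan7 (0.550), Tspan5 (0.579), Cd37 (0.590), Tspan13 (0.595) and Tspan9 (0.648), in that order. It was highest for Tspan1 (3.51), Tspan14 (1.90), Tspan12 (1.46), Cd9 (1.36) and Tspan4 (1.33). For Tspan8 and Tspan15 the ratio was 0.995 and 0.955. The endothelial markers summed to 715 CPM in that library against 1045 and 1275 CPM, the fibroblast and muscle markers to 1999 against 4061 and 4993 CPM, and the epithelial markers to 45181 against 34991 and 32274 CPM. Whether these sums account for the differences was not tested.

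**Figure D5:**
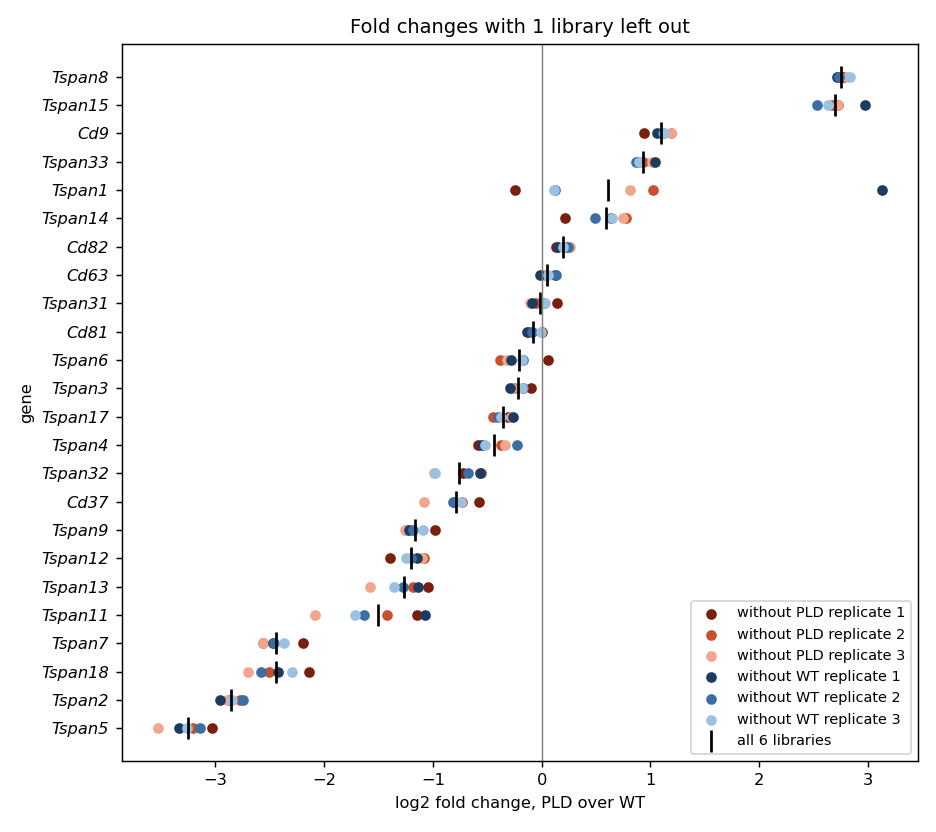
Log2 fold changes of the 24 tested genes with each library left out in turn (coloured points) beside the value from all 6 libraries (black bars). Tspan8 stays between 2.71 and 2.83 and Tspan15 between 2.53 and 2.98, while Tspan1 ranges from -0.24 to 3.13.

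Tetraspanins outside the naming rule were also partly higher. Of 5 tested, Upk1b and Upk1a, the uroplakins that form urothelial plaques, rose from 2.09 ± 0.897 to 13.2 ± 3.76 CPM and from 0.499 ± 0.0296 to 1.76 ± 0.268 CPM (log2 fold changes 2.65 ± 0.36 and 1.80 ± 0.29). Cd151, the tetraspanin that binds laminin-binding integrins most tightly, rose by 0.57 ± 0.14, and Cd53 of leukocytes (-0.22 ± 0.13) and the photoreceptor gene Rom1 (0.07 ± 0.19) did not pass. The uroplakin partner genes were not tested or did not pass: Upk2 had no reads in any library, which at 3 reads allows up to 0.207 CPM in any library, Upk3a was below the filter, and Upk3b was at -1.37 ± 0.51 in log2 units (edgeR adjusted p = 0.0526). Upk3b is also a mesothelial marker, and the 8 mesothelial markers summed to 145 to 189 CPM in WT and 916 to 1228 CPM in PLD. Msln alone had 15.6 to 18.4 CPM in WT and 738 to 1156 CPM in PLD. Of 7 tested, 2 were higher (Msln and Aldh1a2) and 4 lower, among them Wt1 (-2.75 ± 0.20). The median log2 fold change of the list was -1.695.

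Integrin partners of Cd151 and Cd9 changed in both directions, 3 of 6 higher and 2 lower, against 27.0% and 28.4% of all genes. The laminin receptor chains Itga3 and Itgb4 rose by 1.19 ± 0.12 and 1.007 ± 0.13, with Itga6 also higher (1.62 ± 0.32). The fibronectin receptor chain Itga5 fell by 1.38 ± 0.12 and the leukocyte integrin chain Itga4 by 2.05 ± 0.29, while the shared chain Itgb1 did not pass (-0.32 ± 0.12). Of the immunoglobulin superfamily partners of Cd9 and Cd81, Igsf8 and Ptgfrn rose by 0.48 ± 0.15 and 0.39 ± 0.13, Igsf3 did not pass (0.01 ± 0.14), and Cd101 was too low to test. Among surface proteins that associate with tetraspanins, 4 of 7 rose and 1 fell (Cldn1, -1.46 ± 0.38), against 27.0% and 28.4% of all genes. Among those that rose were Cldn7 (1.57 ± 0.18), Epcam (1.61 ± 0.24) and the receptor gene Met (1.13 ± 0.18).

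Genes that sort cargo into endosomal vesicles were higher for 10 of 14 and lower for 1, with a median log2 fold change of 0.57. The syndecan gene Sdc1 rose by 2.31 ± 0.16, and Sdcbp, encoding the syntenin adaptor that binds Cd63, rose by 1.00 ± 0.11 while Cd63 itself did not pass. The secretory GTPase genes went opposite ways: Rab27b rose from 85.6 ± 8.06 to 336 ± 36.0 CPM (1.97 ± 0.13), and Rab27a fell from 29.4 ± 2.62 to 6.004 ± 0.718 CPM (-2.29 ± 0.14). Over the 48 tested genes of these partner lists, 23 were higher and 12 lower in PLD, against 27.0% and 28.4% of all genes. The lists hold epithelial genes by their choice, and the epithelial markers had a median of 1.57.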

How the data were processed

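Each library came as a table that the authors deposited, with unnormalized counts of reads per gene. Per the file headers it was made with featureCounts 1.6.0 on mm10 and GENCODE vM25. No option for strand, paired ends or overlapping genes is named there. STAR 2.7.4a, SAMtools 1.12 and DESeq2 1.26.0 are named per the submitters' processing notes, without settings.

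Gene IDs stripped of their version were given GENCODE vM21 symbols, which 55141 of 55401 had. Counts were fitted with edgeR 4.0.16 (R 4.3.3): filterByExpr kept 15334 genes, which held at least 99.8% of each library's reads, TMM factors (0.922 to 1.04) scaled the libraries, and the groups were compared by glmQLFTest, with no covariate. SEs were taken as the size of the log2 fold change over the root of F. CPM uses TMM-scaled totals, and 3 reads equal 0.177 to 0.207 CPM. Such floors cover counting error only, whereas the SEs also take in the estimated spread between libraries.

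Family shares are CPM per kilobase of gene model over their sum. Members and lists were chosen with earlier results of these data known. All 25 members were to be named, with up to 4 genes of each partner list and 3 of each marker list by smallest p. Itga6, Itgb1, Adam10, Cdh1, Cldn1, Rom1, Thy1, Sctr, Cftr, Alb, Aldh1a2, Cpa3 and Mcpt4, and the genes too low to test, were named after their values were seen. Some genes that the rule names are not reported here. Replicate pairs differed beyond sampling noise (chi-square per degree of freedom 9.72 to 63.9 over genes with at least 50 reads). On simulated data for 15098 genes the test recovered 57.6% of 2-fold and 88.9% of 4-fold changes, with 5.23% false calls. Only 100 genes were changed per fold size there, while 55.4% of genes were called in these data. The recovery rates therefore need not hold here. Alternatives were DESeq2 1.42.0, limma-voom (limma 3.58.1), RLE and upper-quartile factors, no low-count filter, one requiring 1 CPM in 3 libraries, robust fitting, the replicate number as a block and leaving out each library. Scaling to Epcam reads, without a test, was added after seeing the data.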

Additional observations from a re-analysis of the deposited data

How the results depend on the processing

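Under 14 alternative settings the family counts stayed within 1.5 times their values, with 4 or 5 members higher and 7 to 9 lower in PLD. With 1 library left out, the counts ran from 3173 to 4183 higher and 3626 to 4562 lower over all genes, from 20 to 22 and from 10 to 12 in the partner lists, and from 4 to 5 and from 7 to 9 in the family. The Tspan8 share differed by 40.42 to 42.69 percentage points then, and by 40.44 on plain counts. Tspan8, Tspan15, Cd9, Tspan33, Tspan5, Tspan2, Tspan18, Tspan7, Tspan13, Tspan12 and Tspan9 kept their call and direction under all 14. With the replicate block, Tspan11 no longer passed (edgeR adjusted p = 0.0744), Tspan14 did (log2 fold change 0.526), and 3920 genes were higher and 4242 lower. The labels do not say what same-numbered libraries share beyond the number (correlations of deviations 0.156, 0.036 and 0.061). Without a filter, Cd37 no longer passed (adjusted p = 0.0623). Among members that did not pass, the sign changed for Tspan31 without a filter (0.0078). Leaving out 1 library gave -0.24 to 3.13 for Tspan1, -0.39 to 0.062 for Tspan6, -0.11 to 0.14 for Tspan31, -0.018 to 0.13 for Cd63 and -0.13 to 0.0018 for Cd81. Scaling to Epcam reads rescales each library as a whole and put the median of all genes at -1.63. On that scale the sign changed for Cd9 (-0.58), Tspan33 (-0.70), Tspan1 (-0.9982), Tspan14 (-1.09), Cd63 (-1.59) and Cd82 (-1.47), all above that median. With 6 to 18 reads per library, changes of Tspan32 are poorly resolved.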
